A study of Mus musculus with 6 samples.

Results

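The genes described here are 3 regulators of epithelial splicing, Esrp1, Esrp2 and Rbfox2, and 3 genes whose isoforms such factors set, Cd44, Fgfr2 and Ctnnd1. All 6 were matched by symbol in the deposited normalized table, out of 23525 genes named there and 53379 genes counted. Cd44, Fgfr2 and Ctnnd1 had 66 annotated transcripts, of 133849 in the files. ESRP1 and ESRP2 are RNA-binding proteins of epithelial cells that switch exons in or out of many messages, and their loss is part of the epithelial-mesenchymal transition. RBFOX2 binds another short motif and often acts on the same exons in mesenchymal cells. Epithelial cells make CD44 with variable exons, FGFR2 with the IIIb exon and short forms of p120 catenin (Ctnnd1), while mesenchymal cells make standard CD44, FGFR2 IIIc and the full-length p120 catenin.

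RNA came from pancreatic tumour organoids of mice on the C57/Bl6 strain, grown in matrigel, which are epithelial cultures. Cre under the Pdx1 promoter, active in the pancreatic lineage, switches on Trp53 R172H in all of them. The 3 lines used are numbered 6, 23 and 34. Each line gave 1 library with Trp53LSLR172H/+; Pdx1-Cre (heterozygous, n = 3), which has a wild-type Trp53 allele, and 1 with Trp53LSLR172H/-; Pdx1-Cre (LOH, for loss of heterozygosity, n = 3), which has none. The short descriptions of the LOH libraries also end in "Nut", which no label explains. Whatever it stands for cannot be told apart from genotype. The question was whether splicing regulators or their target isoforms differ once the wild-type allele is gone. The labels do not say whether the 2 cultures of a line were grown apart, so p-values measure the spread between these libraries.

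The libraries held 13680458 to 27917277 expected counts. Trp53 itself was at 77.3, 76.3 and 86.5 CPM (counts scaled to the library's size, with TMM factors) in heterozygous lines 6, 23 and 34 and at 73.5, 52.5 and 47.4 CPM in LOH. Its lower mean did not pass the test (log2 fold change -0.47, SE 0.22, edgeR adjusted p = 0.227), and its level checks no label, since the R172H allele is transcribed in both groups. Epithelial markers were present (12 of 12 tested, summed TPM, a level per transcript length and library, of 4161 to 4803 in heterozygous and 3336 to 6353 in LOH). Mesenchymal and fibroblast markers were near 0 (11 of 12 under 1 TPM, summed 0.39 to 8.85 and 0.56 to 6.29). Leukocyte markers summed to 1.76 to 2.25 TPM in heterozygous and 2.67 to 10.8 TPM in LOH libraries, most of it Cd68, and endothelial markers to at most 0.61 TPM. Single libraries weighed on the calls: 757 of 14537 genes (5.21%) passed an edgeR adjusted p of 0.05 with all 6 libraries and 2449 without LOH line 6. Leaving out any 1 of the heterozygous libraries left 0 genes past the edgeR test, while 2272 to 2966 of them had p under 0.05 before adjustment (3681 in the full set).

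None of the 6 genes passed the edgeR test across all genes (0 of 6, against 5.21% of all genes tested, 3.55% higher and 1.66% lower in LOH). With the line as a block 0 of 6 passed as well, against 1.47% of all genes. Esrp2 and Fgfr2 had an unadjusted p under 0.05, and these 2 were also the only members whose groups did not overlap in CPM, which held for 32.8% of all genes. In TPM the groups did not overlap for 3 of 6 members, Cd44, Fgfr2 and Ctnnd1, and for 40.7% of all genes. Both Esrp genes were expressed in every library, and the Fgfr2 mean was 6.85-fold lower in LOH. In bulk RNA, fewer cells of a type and less RNA per cell cannot be told apart.

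**Figure D1:**
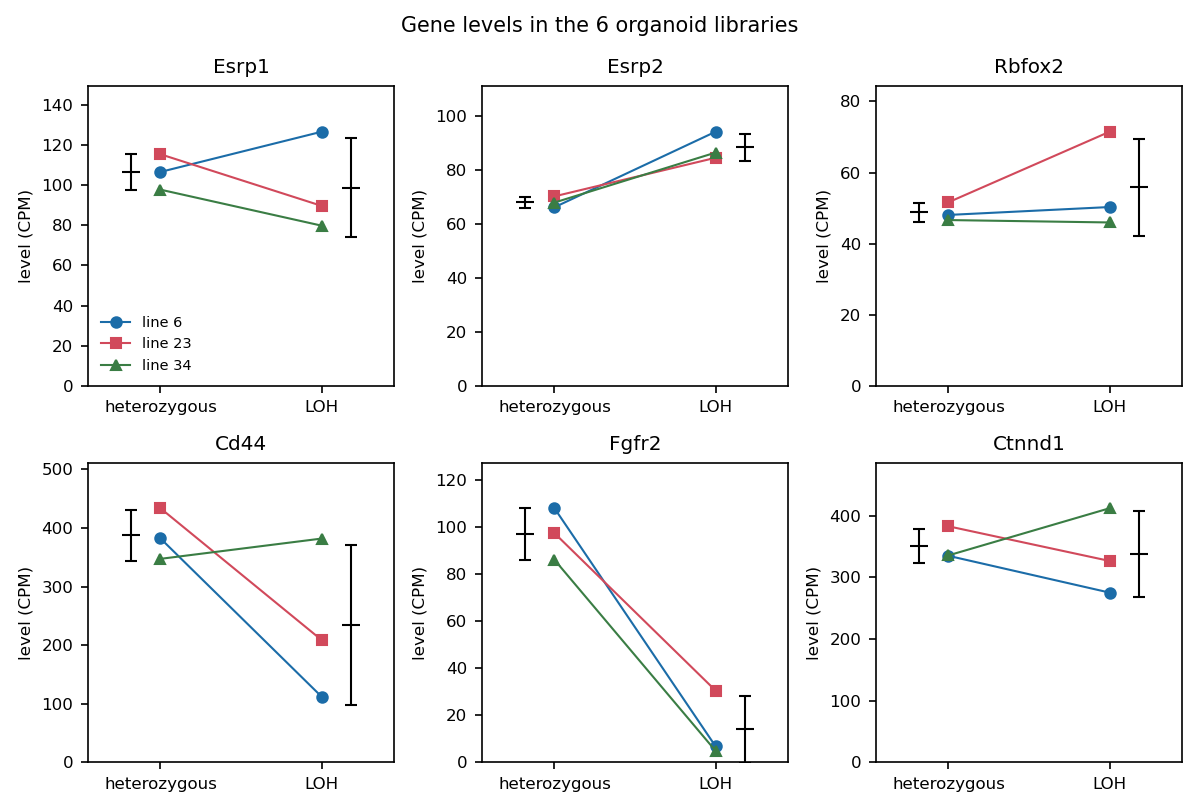
Levels in CPM (vertical axes, from 0) of the 6 genes in heterozygous and LOH libraries; each line joins the 2 libraries of 1 organoid line, and black bars give the mean ± SD of 3 libraries, cut at 0 for Fgfr2. Fgfr2 lies between 86.1 and 108.0 CPM in heterozygous and between 4.94 and 30.5 CPM in LOH libraries, Esrp2 is slightly higher in LOH in each line, and the lines of Cd44 and Esrp1 run in different directions.

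Esrp1 (ENSMUSG00000040728.15) lies on the minus strand of chromosome 4 at 11331933-11386783 in GRCm38, with the lincRNA Gm26663 on the opposite strand. Its levels were 106.5, 115.3 and 97.7 CPM in heterozygous lines 6, 23 and 34 and 126.5, 89.6 and 79.8 CPM in LOH. The highest and the lowest library were both LOH, and the groups overlapped. The difference did not pass the test (log2 fold change -0.11, SE 0.22, edgeR adjusted p = 0.780).

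Esrp2 (ENSMUSG00000084128.10; chromosome 8, 106130319-106136974, minus strand) is the paralogue with overlapping targets. It was at 66.3, 70.3 and 68.0 CPM in heterozygous and at 94.3, 84.6 and 86.6 CPM in LOH libraries. All 3 LOH libraries were above all 3 heterozygous ones. The log2 fold change was 0.38 (SE 0.16) with an unadjusted p of 0.048, and it missed the threshold after adjustment (edgeR adjusted p = 0.194; 0.402 with the organoid line as a block). An exact two-sided permutation test gave p = 0.1, the smallest that 3 against 3 libraries allow. The scale matters for this gene: per length, it averaged 30.2 ± 4.27 TPM in heterozygous and 30.8 ± 5.56 TPM in LOH (SD, n = 3). The median log2 fold change was 0.06 over the 14537 genes tested on CPM and -0.35 over the 11918 tested on log2(TPM + 1). Relative to the median of its own gene set, Esrp2 was 0.31 higher on the first scale and 0.37 higher on the second. Esrp2 overlaps Nfatc3 and 1810019D21Rik on the opposite strand, and the strand setting of the counting is not given in the sources used here.

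The balance of the 2 Esrp messages per length differed by library. The ratio of Esrp1 to Esrp2 in TPM was 1.21, 1.46 and 1.15 in heterozygous lines 6, 23 and 34 and 1.03, 0.761 and 0.751 in LOH. Esrp1 was the more abundant in all heterozygous libraries and in LOH line 6, and Esrp2 in LOH lines 23 and 34. Together they came to 77.4, 65.9 and 62.1 TPM in heterozygous and 74.3, 53.5 and 44.6 TPM in LOH, groups that overlap.

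Rbfox2 (ENSMUSG00000033565.17; chromosome 15, 77078990-77307004, minus strand) was at 48.1, 51.6 and 46.6 CPM in heterozygous and 50.3, 71.5 and 46.0 CPM in LOH libraries. LOH line 23 was the highest, and the other 5 libraries overlapped. The difference of 0.20 on the log2 scale (SE 0.22) did not pass (edgeR adjusted p = 0.597), and on log2(TPM + 1) it was -0.16. Rbfox1 was listed at 0 and Rbfox3 at no more than 0.06 TPM, so Rbfox2 was the paralogue present. Its overlapping genes in the annotation are 4 small or noncoding ones, among them 1700109K24Rik on the opposite strand.

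Genes whose log2 CPM over the 6 libraries followed each regulator most closely are given as a description, among the 10074 that averaged 5 CPM or more. Nearest to Esrp1 were Klhl18 (Pearson r = 0.989), Ces2g (0.988) and Brd7 (0.982). Esrp2 had Dynlt1c (0.999), 1110059E24Rik (0.996) and Tnfrsf21 (0.994). Beside Rbfox2 stood Zfp316 (0.994), Agbl5 (0.986) and Tmem184a (0.984). The 6 libraries share 3 lines and the 2 groups, and no test is attached to these values.

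Cd44 encodes the hyaluronan receptor, whose 10 variable exons (v1 to v10) can be spliced in between the constant parts of its extracellular stem. It lies at chromosome 2, 102811141-102901665, minus strand (ENSMUSG00000005087.17). The v6 exon is shown because it is often used to mark variant CD44, and v8 because nearly all counts here came from forms that hold it. Capitals mark GGTGG, a motif that ESRP proteins favour. Coordinates are chr2:102839358-102839477 for v6 and chr2:102834234-102834335 for v8, GRCm38, both minus strand, 5′ to 3′.
Cd44 v6: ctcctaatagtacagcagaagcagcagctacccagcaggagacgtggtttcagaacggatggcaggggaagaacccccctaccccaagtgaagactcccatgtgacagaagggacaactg
Cd44 v8: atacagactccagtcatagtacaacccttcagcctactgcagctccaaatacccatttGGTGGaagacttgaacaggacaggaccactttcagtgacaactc
On the sense strand, GGTGG was found in 2 of 10 variable exons (v8 and v10), where 11.3% to 29.6% of annotated internal exons of the same lengths hold it. GCATG, the core of the RBFOX motif, was in 0 of 10. No Cd44 variable exon held both motifs. A match is a description of these letters and not a binding site, and introns were not examined.

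Cd44 levels in CPM split by line. They were 382.3, 433.7 and 347.4 CPM in heterozygous lines 6, 23 and 34 and 112.3, 209.0 and 382.0 CPM in LOH. LOH was lower in lines 6 and 23 and slightly higher in line 34, so the groups overlapped in CPM. The log2 fold change of -0.73 (SE 0.41) did not pass (edgeR adjusted p = 0.314). It was -1.27 without the LOH library of line 34 and -0.43 without that of line 6, and neither passed. Per length Cd44 was lower in LOH in all 3 lines, at 139.7, 126.0 and 112.3 TPM in heterozygous and 31.9, 51.3 and 91.1 TPM in LOH, groups that did not overlap. On log2(TPM + 1), where the median of the genes tested on that scale was -0.35, the difference was -1.23 (limma adjusted p = 0.0525).

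The composition of Cd44 was close to the same in both groups. Transcripts with at least 1 variable exon took 98.7%, 98.9% and 98.5% of the classified expected counts in heterozygous lines 6, 23 and 34 and 100%, 99.08% and 99.05% in LOH. Standard CD44, which skips all variable exons (Cd44-203), had 143.6, 62.5 and 151.8 counts in heterozygous and 0, 49.9 and 76.6 in LOH. The count of 0 in LOH line 6 allows a share of up to 0.157%. The LOH group was above the heterozygous group by 0.65 percentage points without overlap (exact permutation p = 0.1, 0.15 adjusted over 3 class shares), and by 0.34 points without LOH line 6. As a share of all Cd44 counts, unclassified transcripts included, the variant class took 97.8% ± 0.531 and 97.7% ± 1.23 (SD, n = 3), with overlap. Usage of the variant class, its change relative to the gene as a whole, differed by 0.0067 on the log2 scale (edgeR diffSpliceDGE adjusted p = 0.999997, where 0.211% of classes and transcripts passed). A class with nearly all of the counts stays near 0 on this measure. limma diffSplice, chosen after seeing the data, compares the variant with the standard class. Its difference was 1.53 and was not called either (adjusted p = 0.999925).

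Inclusion was lowest for the first exons and highest for the last in each library, with a dip at v7, as the plot of variable exons by library shows. The annotated transcripts fix this order whatever the counts. A variant form that holds one of v1 to v6 also holds the later exons, except that Cd44-207 lacks v7. Only the heights of the shares are estimated. Exons v1, v2 and v3 were in 27.8% ± 1.64 of classified counts in heterozygous and 25.2% ± 4.13 in LOH (SD, n = 3), v5 in 63.5% ± 1.65 and 61.8% ± 2.40, v6 in 90.1% ± 2.09 and 89.5% ± 2.06, v7 in 58.2% ± 3.71 and 56.6% ± 6.01, and v8 in 97.6% ± 0.86 and 98.3% ± 1.53. Of the 10 exons only v10 had groups that did not overlap, which repeats the standard share, since every variant transcript holds v10. A Cd44 message carried on average 5.48 ± 0.12 variable exons in heterozygous and 5.37 ± 0.29 in LOH, weighted by TPM (exact permutation p = 0.6). These shares come from estimates for 9 annotated transcripts, not from reads over each junction.

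**Figure D2:**
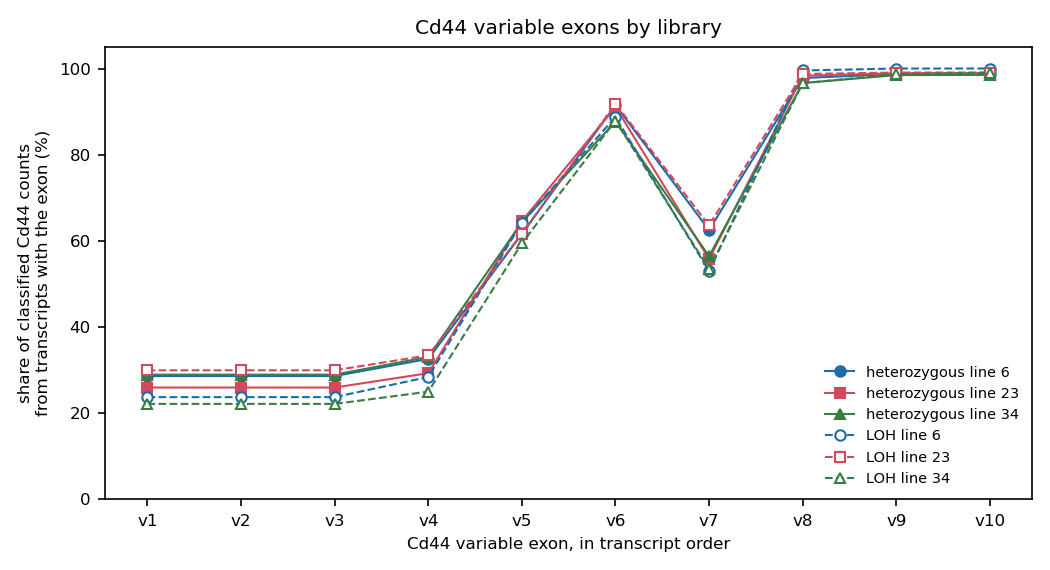
Share of classified Cd44 expected counts from transcripts that hold each variable exon (vertical axis, percent), for v1 to v10 in transcript order (horizontal axis), with 1 line per library, solid for heterozygous and dashed for LOH. The rising order and the dip at v7 are set by the annotated transcripts. Over the 6 libraries the share lies between 22.1% and 29.9% for v1 and between 96.6% and 99.5% for v8.

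The groups overlapped for all 4 Cd44 transcripts with at least 5% of the gene's counts. Cd44-207 (v5, v6 and v8 to v10) took 31.6% ± 3.28 in heterozygous and 32.3% ± 4.21 in LOH, Cd44-201 (all 10) 27.5% ± 1.53 and 24.8% ± 3.90, Cd44-202 (v6 to v10) 26.4% ± 3.20 and 27.3% ± 2.65, and Cd44-205 (v8 to v10) 7.43% ± 1.33 and 8.66% ± 1.97 (SD, n = 3). Each of these is a variant form of the epithelial kind. Of all genes with 2 or more transcripts tested, 0.759% passed the gene-level usage test (63 of 8299), and Cd44 did not (edgeR diffSpliceDGE adjusted p = 0.999981). Among single transcripts 0.211% passed it, and none of the Cd44 transcripts did.

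Fgfr2 encodes a receptor for fibroblast growth factors, and the third immunoglobulin domain ends in 1 of 2 mutually exclusive exons. The IIIb exon binds ligands made by stroma such as FGF7 and FGF10, and the IIIc exon binds others. The IIIb exon is printed because the class that held most Fgfr2 counts rests on it. It lies at chr7:130199758-130199905 in GRCm38, minus strand, and is given 5′ to 3′.
Fgfr2 IIIb: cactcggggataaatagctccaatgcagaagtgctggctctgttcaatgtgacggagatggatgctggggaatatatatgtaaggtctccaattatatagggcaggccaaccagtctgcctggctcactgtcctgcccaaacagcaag
The IIIb exon has 148 bases.

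Fgfr2 (ENSMUSG00000030849.18) was the member with the largest difference in level. It stood at 108.0, 97.4 and 86.1 CPM in heterozygous lines 6, 23 and 34 and at 6.87, 30.5 and 4.94 CPM in LOH. Every LOH library lay far below every heterozygous one, and LOH line 23 kept the most. The log2 fold change was -2.78 (SE 0.68, unadjusted p = 0.0046), just short of the threshold after adjustment (edgeR adjusted p = 0.0639; 0.0725 with the line as a block). Per length the means were 39.8 ± 10.5 TPM and 4.36 ± 4.48 TPM (SD, n = 3). The call depended on the settings: without the LOH library of line 23 it was -4.04 (edgeR adjusted p = 0.0147), and DESeq2 gave -2.79 (adjusted p = 0.00019). Over 18 alternatives the adjusted p ran from 0.00019 to 0.233, and 5 of them called the gene. All of these alternatives had the lower level in LOH. The annotated gene spans chromosome 7, 130162451-133123350, minus strand, because 1 transcript starts far upstream, and 69 other genes lie within that span.

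The class shares of Fgfr2 stayed on the side of IIIb. Of the counts that could be assigned to IIIb or IIIc, IIIb took 95.6%, 100% and 98.1% in heterozygous lines 6, 23 and 34 and 100%, 100% and 87.8% in LOH. The groups overlapped (exact permutation p = 1.0). In numbers of reads, IIIc had 82.0, 0 and 28.0 expected counts in heterozygous and 0, 0 and 10.2 in LOH, against 1792, 862.1 and 1463 and 98.6, 500.4 and 73.2 for IIIb. Depth is the limit in LOH: for line 34 the 95% Wilson interval of the IIIb share ran from 79.2% to 93.3%, and in line 6 the 0 counts of IIIc allow a share of up to 3.04%. Without the LOH library of line 34 the mean IIIb share was 2.08 percentage points higher in LOH, and with it 1.98 points lower. IIIc was too low to enter the usage test, so Fgfr2 classes have shares and no model p-value.

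The level of the IIIb class followed that of the gene. It was 58.5, 64.3 and 48.8 CPM in heterozygous and 5.98, 19.0 and 3.39 CPM in LOH, scaled over transcripts (log2 fold change -2.59, SE 0.63, edgeR adjusted p = 0.163). In the separate test of single transcripts, without summed classes, 0.0272% of 36699 passed, 0.0245% higher and 0.00272% lower in LOH. All LOH libraries lay below all heterozygous ones.

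**Figure D3:**
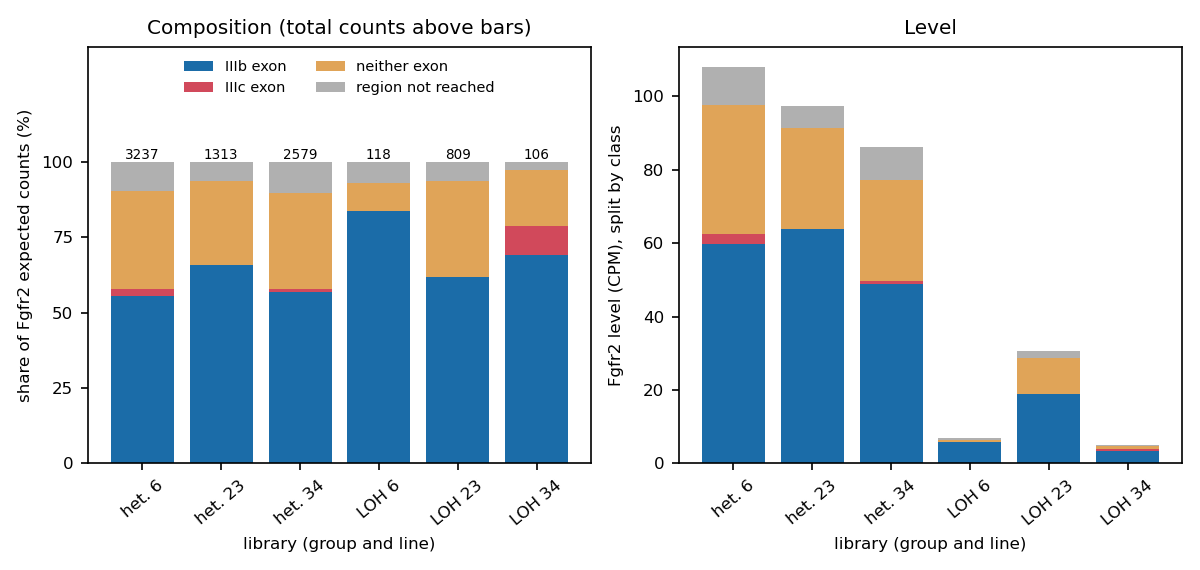
Left, the share of Fgfr2 expected counts (percent) by which of the exons IIIb and IIIc a transcript holds, for each library, with the total count above each bar; right, the same classes as parts of the Fgfr2 level in CPM. IIIb is the largest class in all 6 libraries, and LOH bars on the right are much shorter than heterozygous ones.

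A large part of Fgfr2 counts went to a transcript with neither exon. Fgfr2-226, annotated as a target of nonsense-mediated decay, took 30.8% ± 2.37 of the gene's counts in heterozygous and 19.9% ± 11.2 in LOH (SD, n = 3), with 9.49% in LOH line 6, 31.7% in line 23 and 18.5% in line 34. The groups overlapped (exact permutation p = 0.3). It holds the upstream exon at chromosome 7, 130242378-130242644, and a last exon of 1612 bases, whereas the last exon of annotated IIIb transcripts with that upstream exon has at most 259 bases and of IIIc ones at most 415. Whether its counts come from messages that skip both exons was not tested. The main IIIb form, which ends in a last exon of 1673 bases, took 44.05% ± 6.75 and 51.9% ± 13.9, and the IIIb form Fgfr2-210, with a last exon of 165, 12.5% ± 1.71 and 13.0% ± 11.3. Fgfr2-204, also IIIb, was at 0 in each heterozygous library and at 16.4%, 2.44% and 0% in LOH lines 6, 23 and 34, from 19.4 and 19.7 counts.

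Ctnnd1 encodes p120 catenin, which holds cadherins at the cell surface. It lies at chromosome 2, 84600071-84650765, minus strand (ENSMUSG00000034101.14). Translation from the upstream start gives isoform 1, the form of mesenchymal cells, and from a start further along isoform 3, the form of epithelia. The coding part of the exon with the isoform 1 start is shown because transcripts that skip it fall in the isoform 3 class; capitals mark the start codon. The 63-base exon (exon A of the p120 literature) is shown because Ctnnd1-205, the transcript with the largest difference in share, holds it. Positions in GRCm38 are chr2:84624270-84624464 and chr2:84605184-84605246, minus strand, 5′ to 3′.
Ctnnd1 isoform 1 start: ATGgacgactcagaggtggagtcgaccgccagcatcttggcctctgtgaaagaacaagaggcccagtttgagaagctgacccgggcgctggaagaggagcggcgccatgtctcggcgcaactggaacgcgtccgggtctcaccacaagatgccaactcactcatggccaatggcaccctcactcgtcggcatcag
Ctnnd1 63-base exon: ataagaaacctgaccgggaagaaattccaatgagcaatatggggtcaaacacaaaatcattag
Neither GGTGG nor GCATG is in the 63-base exon (6.39% and 5.57% of internal exons of that length hold them). The exon with the isoform 1 start holds GGTGG once, left in lower case above, as do 44.2% of internal exons of its length.

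The level of Ctnnd1 depended on the scale. It was 335.2, 383.1 and 335.9 CPM in heterozygous and 275.5, 326.9 and 412.3 CPM in LOH libraries, and LOH held both the lowest and the highest value (log2 fold change -0.05, SE 0.20, edgeR adjusted p = 0.890). Per length it was 86.8, 79.8 and 74.1 TPM in heterozygous and 50.8, 56.6 and 66.6 TPM in LOH, without overlap. On log2(TPM + 1) the difference was -0.47 (limma adjusted p = 0.109), beside a median of -0.35 for the genes tested on that scale.

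The make-up of Ctnnd1 also differed. Transcripts with the isoform 1 start took 41.7%, 44.9% and 45.8% of the classified counts in heterozygous lines 6, 23 and 34 and 57.5%, 52.2% and 48.2% in LOH. The LOH share was higher in each line, by 15.8, 7.27 and 2.40 percentage points, and the groups did not overlap. Most counts with the 2833-base last exon were of Ctnnd1-207 and Ctnnd1-208, which have the isoform 3 start. The shares may thus also depend on how reads over that end were assigned, which was not tested. The mean difference was 8.50 points (exact permutation p = 0.1, 0.15 adjusted over 3 class shares), and on TPM 9.37 points. The usage test did not call it (log2 usage difference 0.24 relative to the gene as a whole, edgeR diffSpliceDGE adjusted p = 0.999997). limma diffSplice, which compares the isoform 1 with the isoform 3 start, did not call it either (0.49, adjusted p = 0.9618). Transcripts of both start classes were present in all 6 libraries at comparable shares, so neither group had transcripts of 1 class only. Which start is translated was not measured.

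The largest difference in share was that of Ctnnd1-205, which has the isoform 3 start and the 63-base exon. It took 41.6%, 41.7% and 41.2% of Ctnnd1 counts in heterozygous lines 6, 23 and 34 and 18.8%, 25.5% and 31.9% in LOH. The heterozygous libraries had an SD of 0.29 points, and all LOH libraries lay lower, line 6 by the most. Ctnnd1-202, with the isoform 1 start and without the 63-base exon, took 29.1%, 25.7% and 29.3% in heterozygous and 37.2%, 32.8% and 34.6% in LOH. Ctnnd1-207, with the isoform 3 start and both the 63-base and the 87-base exon, averaged 10.6% ± 1.52 and 15.3% ± 2.58, and Ctnnd1-208, with the 87-base exon alone, 2.23% ± 0.58 and 5.82% ± 1.40 (SD, n = 3). Ctnnd1-217, with the isoform 1 start and the 18-base and 63-base exons, averaged 14.6% ± 3.12 and 16.8% ± 3.69, and its groups overlapped.

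**Figure D4:**
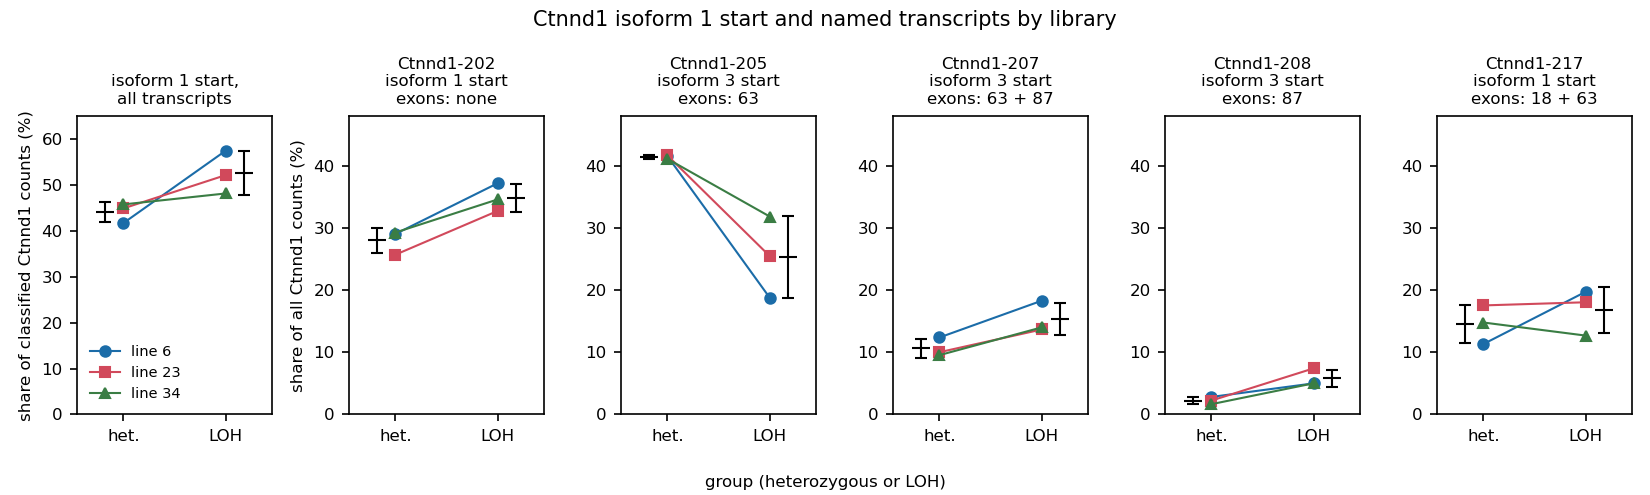
Share of Ctnnd1 expected counts (vertical axes, percent) for all transcripts with the isoform 1 start (first panel, of classified counts) and for the 5 named transcripts (of all Ctnnd1 counts), with the optional exons each holds by length in bases; lines join the 2 libraries of an organoid line and black bars give the mean ± SD of 3. Ctnnd1-205 goes from 41.5% to 25.4% on average and Ctnnd1-202 from 28.0% to 34.9%, in the same direction in all 3 lines.

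Of the 13 named transcripts of Cd44, Fgfr2 and Ctnnd1, 4 had shares that did not overlap between groups, and these were 4 of 5 in Ctnnd1, 0 of 4 in Cd44 and 0 of 4 in Fgfr2. Shares of a gene are parts of the same total, so these 4 are not independent of one another. Across 15397 transcripts of genes with at least 100 counts in each library the share that did not overlap was 14.2%. With 3 libraries a group the exact permutation p of each of the 4 was 0.1, or 0.32 adjusted over the 13. Ctnnd1 as a whole did not pass the usage test (edgeR diffSpliceDGE adjusted p = 0.999981, unadjusted p = 0.071; limma diffSplice adjusted p = 0.149, where 0.145% of genes passed). Without the LOH library of line 6 it did, with a diffSpliceDGE adjusted p of 0.0422.

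Counted by exon, the 63-base exon was in 68.8% ± 2.18 of classified Ctnnd1 counts in heterozygous and 58.6% ± 1.16 in LOH, and the 87-base exon (exon B) in 13.6% ± 2.11 and 21.5% ± 2.08 (SD, n = 3). Neither pair of groups overlapped (exact permutation p = 0.1 each, 0.27 adjusted over 16 exon shares). Among transcripts with the isoform 3 start alone, the 87-base exon was in 26.8%, 22.7% and 21.4% in heterozygous and 55.4%, 45.3% and 37.4% in LOH. Among those with the isoform 1 start it was rare and lower in LOH, at 0.66%, 1.64% and 0.27% against 0%, 0.01% and 0%, also without overlap. Among those with the isoform 1 start the 63-base exon was in 34.4% ± 6.44 and 32.3% ± 4.80, groups that overlapped. Within the isoform 3 start the 63-base exon was in 95.0%, 95.9% and 96.9% in heterozygous and 88.1%, 84.0% and 90.1% in LOH, without overlap. The 18-base exon (exon C) was in 15.0% ± 3.16 and 17.1% ± 3.70 of all classified counts, with overlap. All counted transcripts with the 87-base exon also end in a last exon of 2833 bases, where Ctnnd1-202 and Ctnnd1-217 have 2121 and Ctnnd1-205 has 2120, so the exon and the longer end cannot be told apart in these estimates.

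Among other splicing factors, Srsf3 and Khdrbs1 fell. Of 38 listed beside the 3 regulators, 33 were tested, 2 fell and 0 rose, against 1.66% and 3.55% of all genes, and the median log2 fold change was -0.28 against 0.06 for all genes. Srsf3, an SR protein that promotes exon inclusion, fell from 272.9, 288.6 and 318.5 CPM in heterozygous lines 6, 23 and 34 to 176.5, 158.3 and 180.1 CPM in LOH (log2 fold change -0.77, SE 0.16, edgeR adjusted p = 0.0449; 0.146 with the line as a block). Khdrbs1, which encodes the RNA-binding protein SAM68 that is known to act on Cd44 exon v5, fell from 144.6, 136.1 and 128.3 to 83.3, 83.4 and 80.4 CPM (-0.73, SE 0.16, edgeR adjusted p = 0.0470; 0.160 with the block). In both genes all LOH libraries lay below all heterozygous ones. The v5 share of Cd44 was 63.5% and 61.8%, as above, with groups that overlapped, and a link to Khdrbs1 was not tested.

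**Figure D5:**
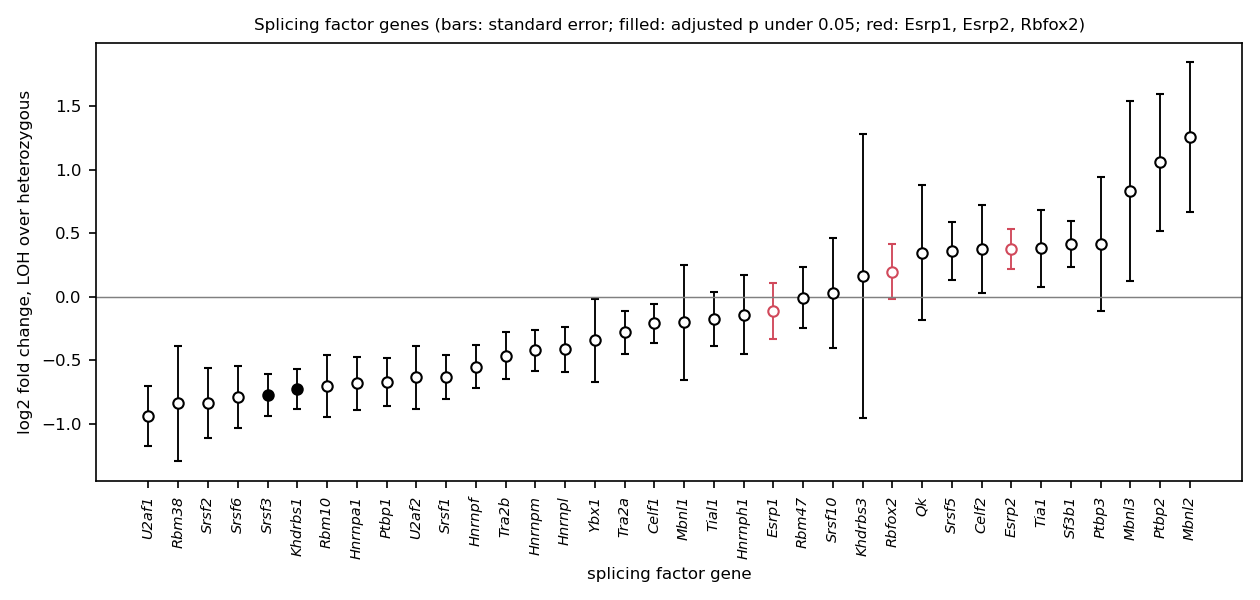
Log2 fold change, LOH over heterozygous, of the 36 tested splicing factor genes (vertical axis; bars are the standard error), ordered by value, with filled points for an edgeR adjusted p under 0.05 and Esrp1, Esrp2 and Rbfox2 in red. The filled points are Srsf3 and Khdrbs1, the regulators are at -0.11 (Esrp1), 0.38 (Esrp2) and 0.20 (Rbfox2), and 23 of 36 genes are below 0.

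Zeb1, Zeb2, Snai1 and Snai2, which repress epithelial genes, had at most 0.05 TPM in any library and were not tested. Twist1, another repressor, was tested at very low levels of 0.03, 0.07 and 0.27 CPM in heterozygous and 1.28, 2.15 and 0.65 CPM in LOH, without overlap. Its log2 fold change of 3.33 (SE 0.81), the largest of the list, did not pass (edgeR adjusted p = 0.0625). Of 10 listed transcription factors that act for or against Esrp1, 6 were tested and 2 rose, against 3.55% of all genes. Elf3, an epithelial factor, rose from 66.2, 85.0 and 59.6 CPM to 207.1, 228.6 and 244.9 CPM (log2 fold change 1.69, SE 0.20, edgeR adjusted p = 0.0164; 0.0453 with the block). Klf4 rose from 31.7, 32.7 and 31.2 to 81.7, 66.3 and 68.3 CPM (1.177, SE 0.17, edgeR adjusted p = 0.0208; 0.0852 with the block). Grhl2, an activator of Esrp1, was 0.12 higher on the log2 scale (SE 0.19) and did not pass (edgeR adjusted p = 0.707). As for all called genes, no call here held without any 1 heterozygous library.

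Partners of the target genes were mostly not called. Of 18 genes of the FGF list beside Fgfr2, 14 were tested and 1 rose, against 3.55% of all genes: Spry4, a feedback inhibitor of receptor signalling, went from 9.47, 10.3 and 9.75 CPM to 24.97, 26.4 and 55.0 CPM (log2 fold change 1.85, SE 0.34, edgeR adjusted p = 0.0329; 0.0777 with the block). Fgfr1, the receptor of mesenchymal cells, stayed at or under 0.17 TPM. Of the stromal IIIb ligands named above, Fgf10 was listed at 0 and Fgf7 had 0.04 to 1.25 TPM. Among CD44 ligands and processing enzymes 0 of 10 tested genes passed (median log2 fold change 0.05; 5.21% of all genes passed), and among p120 catenin partners 0 of 11 (median 0.10), including Cdh1, the cadherin p120 catenin holds in place (0.24, SE 0.26, edgeR adjusted p = 0.581). None of the 12 epithelial markers passed. On CPM all 12 had a log2 fold change above 0, from 0.0046 to 1.33 (median 0.44, against 0.06 for all genes). Their summed TPM, given above, overlapped between the groups.

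Other genes with ESRP-responsive exons gave 1 call. Of 17 listed beside Cd44, Fgfr2 and Ctnnd1, 0 passed the test of level, against 5.21% of all genes, and 15 had at least 2 transcripts to compare. Only Exoc7 passed the usage test (diffSpliceDGE adjusted p = 0.0110, and 0.1803 with the block), against 0.759% of all genes and 0.169% with the block. Exoc7 was not called by limma diffSplice (adjusted p = 0.268), where 0.145% of genes passed. Its called transcript, Exoc7-208, is noncoding and had 13.0, 19.1 and 28.6 counts in heterozygous and 0 in each LOH library, at most 4.19% of the gene. Its coding form Exoc7-202 took 80.6% to 86.5% in heterozygous and 83.7% to 89.4% in LOH libraries. These 2 transcripts were chosen after their values were seen.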

How the data were processed

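RNA from 6 organoid cultures was made into stranded total RNA libraries, per the labels. The submitters' processing notes list FastQC 0.11.5, STAR 2.5.2b, RSEM 1.3.0, DESeq2 1.44.0 and GRCm38.p5, with no roles or strand setting. The authors deposited RSEM expected counts and TPM per gene and transcript, and effective lengths, another kind of value. Their deposited normalized tables hold a signal, the count over a size factor, and served to match symbols.

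Expected counts were rounded, kept by filterByExpr, scaled by TMM and tested with edgeR 4.0.16 (R 4.3.3): the quasi-likelihood test for levels and diffSpliceDGE for usage, two-sided, with Benjamini-Hochberg adjustment over all features and a threshold of 0.05. Exon structures, sequences and coordinates came from a later GENCODE release on GRCm38, which held every member transcript by identifier. Ctnnd1 classes were planned from the start codon farthest 5′, but that start belonged to 1 transcript with 42.4 counts in 1 library, so the isoform 1 and isoform 3 starts were used. Named transcripts had at least 5% of a gene's counts in either group, and from each list up to 4 called genes were named. An allele that both groups share, and exon sequences other than those printed, are not reported here. Members and lists were chosen with earlier results of these data known. The scripts were tested on simulated data. There the gene test recovered 75 of 100 4-fold and 96 of 100 10-fold changes, with 13 false calls. diffSpliceDGE recovered 14 and 58 of 100 changes in usage, with 28 false calls, and limma diffSplice 29 and 78, with 29. A gene not called for usage is thus not shown to be unchanged.

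Libraries of 1 line share an origin by their titles, so line numbers pair them. Deviations from the group means correlated at -0.3, 0.01 and 0.29 across genes in lines 6, 23 and 34. Pairs from different lines ran from -0.39 to 0.3, so libraries of the same line were not more alike on this measure. A count of 3 equals 0.1 to 0.223 CPM. Both confidence intervals and limits for 0 counts describe counting error alone, because reads carried no molecular identifiers. Alternatives were other scalings and filters, the line as a block, DESeq2 1.42.0, limma 3.58.1 on TPM, shares of TPM, each library or line left out and, chosen after seeing the data, limma diffSplice and the transcript level alternatives. Shares and figures were made with Python 3.11.15, scipy 1.17.1 and matplotlib 3.10.9.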

Additional observations from a re-analysis of the deposited data

Results flagged for a closer look

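Opposite directions in different organoid lines were found for 5 results, among 6 gene levels in CPM and 3 class shares compared over the lines. With 1 library per genotype in each line, the difference between lines was not tested. For Cd44 the log2 ratios of LOH to heterozygous in lines 6, 23 and 34 were -1.77, -1.05 and 0.14, a span of 1.90. For Esrp1 they were 0.25, -0.36 and -0.29, a span of 0.611. For Ctnnd1 the ratios were -0.28, -0.23 and 0.30, a span of 0.578, and for Rbfox2 they were 0.07, 0.47 and -0.02, a span of 0.489. In TPM, Cd44, Esrp1 and Ctnnd1 were lower in LOH in all 3 lines, and the 2 genes with both directions were Rbfox2 and Esrp2 (Esrp2 0.06, 0.18 and -0.18). TPM carried no TMM factor, and on log2(TPM + 1) the median over 11918 genes was itself -0.35. The Fgfr2 IIIb share was 4.37 percentage points higher in LOH in line 6, equal in line 23 and 10.3 points lower in line 34, a span of 14.7 points, and it rests on 83.3 classified counts in LOH line 34.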

How the results depend on the processing

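Esrp2, Cd44 and Fgfr2 kept their direction in all 18 alternatives of the gene test. Esrp2 was near 0 on TPM, however, at 0.021 on log2(TPM + 1) and 0.021 on log2(TPM + 0.1). The median of the genes tested on these scales was -0.35 and -0.42. Fgfr2 passed in 5: no filter (-2.80), DESeq2 (-2.79), limma on log2(TPM + 1) (-3.22) and on log2(TPM + 0.1) (-3.63), and without LOH line 23 (-4.04, the lower end of -4.04 to -2.38 over libraries left out). Esrp1 turned to 0.018 without LOH line 34 and to 0.01 without both libraries of line 23, with -0.37 to 0.018 over single libraries left out and -0.55 and -0.57 on TPM. Rbfox2 turned to -0.16 and -0.17 on TPM and to -0.020 without LOH line 23, with -0.020 to 0.32 over single libraries left out. Ctnnd1 turned to 0.00 without heterozygous line 23, 0.035 without LOH line 6, 0.034 without both libraries of line 23 and 0.01 without both of line 6, over a range of -0.26 to 0.035 with libraries or lines left out. The cause of these turns was not tested. The 757 called genes became 213 with the line as a replicate block, 2281 with DESeq2, 1911 and 1753 with limma on TPM, and 0 to 2449 with a library or line left out (1422 without both of line 6). The 63 genes called for usage became 14 with the block, 0 with at least 10 counts in every library, 12 with limma diffSplice and 39 to 106 with a library left out. The 65 classes and transcripts called became 19 with the block, 0 with that filter, 19 with limma diffSplice and 44 to 124. The 10 called transcript levels became 0 with the block, 322 with that filter and 0 with any library left out. With a library left out of a group of 3, edgeR pools the spread over both groups. Cd44 and Fgfr2 were not called for usage in any of 10 alternatives, and Ctnnd1 in 1 of 10. Class shares moved by less than the larger of the 2 groups' SDs in all 8 alternatives each, though the Fgfr2 IIIb difference went from -1.98 to 2.08 points without LOH line 34 and the Cd44 variant difference from 0.65 to 0.34 without LOH line 6. The block changed no member's call. Depth limits Fgfr2 isoforms in LOH, where lines 6 and 34 had 118 and 106 counts.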
